A study of Mus musculus with 12 samples.

Results

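The Gimap genes encode GTPases of immunity-associated proteins, a family of small GTP-binding proteins found mainly in lymphocytes. The members were taken by name: the 8 genes Gimap1, Gimap3, Gimap4, Gimap5, Gimap6, Gimap7, Gimap8 and Gimap9, all of which have a row among the 11581 genes of the deposited table. The table gives unstimulated CD8 T cells that were either scurfy, with a loss-of-function mutation of the transcription factor gene Foxp3, or wild type for Foxp3. Donor marrow of the OT-1 strain, in which a transgenic receptor makes CD8 T cells specific for SIINFEKL, an ovalbumin peptide, was Foxp3Scurfy or Foxp3wt and carried CD45.1+/2+. It was mixed with CD45.2+ marrow and given to CD45.2+ C57BL/6 J mice, from which CD8 T cells were purified 2 months after reconstitution. Each group has 3 libraries, named here scurfy 1 to 3 and wild type 1 to 3. Both groups share the OT-1 receptor and the chimeric host, and the labels do not say whether CD8 T cells of the partner marrow were removed. Separate mice per library are not stated either. All p-values therefore rest on the variation among these libraries, part or all of which may be technical. The 6 libraries given peptide for 6 h were not analysed here.

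Gimap proteins sit on intracellular membranes and bind GTP through a domain related to that of septins. In mice the loss of Gimap1 or Gimap5 strongly reduces peripheral T cells, so the family is best known for keeping lymphocytes alive. Gimap3 and Gimap5 have been described as partners of Bcl-2 family proteins, Gimap4 as a regulator of T cell death, and Gimap6 as a partner of autophagy proteins. In naive CD8 T cells several of these transcripts are abundant.

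The libraries held 8852518 to 23149523 reads over the table, the deepest being wild type 2. Foxp3 has no row, so the genotype was not checked against its transcript. Of the markers of the labelled cell type, Cd8a lay between 6873 and 8310.1 normalized counts and Cd8b1 between 21344 and 21911. None of 3 CD4 T cell and 4 natural killer markers had a row, and of 6 myeloid and 5 erythroid markers 1 each had one. Both of these passed the test (limma, adjusted p under 0.05), with Cst3 higher in scurfy by 0.59 on the log2 scale and Car2 at -1.12. Their calls were lost, for Cst3 without scurfy 2, scurfy 3 or wild type 2 (limma adjusted p up to 0.0815), and for Car2 without wild type 3 (0.0645). Cst3 also lost its call with library size scaling (0.0529) and with a trend on gene length removed (0.083). Scurfy 3 lay farthest out on the first principal component (35.8% of the variance), at -43.5 against -18.6 and -14.4 for the other scurfy libraries and 12.3 to 33.8 for wild type. In whole populations of cells such as these, fewer cells of a type and less RNA per cell cannot be told apart.

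All 8 genes lie in 1 cluster on chromosome 6. In the GENCODE M21 annotation their order is Gimap8, Gimap9, Gimap4, Gimap6, Gimap7, Gimap1, Gimap5 and Gimap3, with Gimap6 and Gimap3 on the minus strand. The neighbours Gimap9 and Gimap4 turned out to differ most between the genotypes, in opposite directions. The 250 bases before the annotated start of each are shown for this reason, 5′ to 3′ on the plus strand, from RefSeq on build GRCm38.p6 (chr6:48684328-48684577 for Gimap4 and chr6:48675885-48676134 for Gimap9). Capitals mark matches on either strand to a forkhead motif (TGTTTNC), an Ets motif (GGAAGT) or a Runx motif (TGTGGT).
Gimap4: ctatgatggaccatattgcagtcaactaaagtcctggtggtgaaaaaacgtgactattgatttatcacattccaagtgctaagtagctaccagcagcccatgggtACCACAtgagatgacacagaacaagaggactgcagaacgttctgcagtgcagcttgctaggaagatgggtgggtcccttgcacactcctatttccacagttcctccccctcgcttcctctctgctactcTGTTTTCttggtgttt
Gimap9: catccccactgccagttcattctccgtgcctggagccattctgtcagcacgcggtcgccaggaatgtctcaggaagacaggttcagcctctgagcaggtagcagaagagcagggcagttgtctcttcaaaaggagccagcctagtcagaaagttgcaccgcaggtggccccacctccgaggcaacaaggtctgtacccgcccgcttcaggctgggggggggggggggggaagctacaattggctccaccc
The Gimap4 window holds 1 forkhead match and 1 Runx match, which do not overlap, and the Gimap9 window holds none of the 3 motifs. RefSeq gives 9 start windows for the 8 genes, since Gimap8 has a pair of starts. The forkhead motif is in 4 of the 9 windows, those of Gimap4, Gimap6, Gimap7 and Gimap3, against 17.8% of all 32851 start windows in the table of promoters. The Ets motif is in 2 of the 9, those of Gimap6 and Gimap5, against 19.7%, and the Runx motif in 3, those of Gimap4, Gimap7 and Gimap1, against 14.0%. A match is a run of letters and not a measured binding site.

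Gimap4, the described regulator of T cell death, was the 1 member that changed in limma, and it was lower in scurfy cells by 1.65-fold. It was also the 1 member called by edgeR, whereas DESeq2 called Gimap9 as well. The authors' deposited table made the same calls as DESeq2, with matching values. Normalized counts are reads divided by a size factor for each library, and a gene passed at a Benjamini-Hochberg adjusted p under 0.05. The other 7 members did not pass in limma, and their log2 fold changes lay between -0.14 and 0.37. Gimap4 stood at 2306, 2388 and 1513 normalized counts in scurfy 1 to 3 and at 3178, 3144 and 3756 in wild type 1 to 3. Every scurfy library lay below every wild-type library, with scurfy 3 the lowest and wild type 3 the highest. The mean was 2069 ± 483 in scurfy and 3359 ± 344 in wild type (SD, n = 3 each). The log2 fold change was -0.72 with an SE of 0.15, a 95% interval from -1.05 to -0.40 and a limma adjusted p of 0.0190. Of all 11581 genes, 11.2% had as large a log2 change or larger in either direction, and Gimap4 ranked 175 by p. The call rests on both of 2 wild-type libraries: the limma adjusted p was 0.0529 without wild type 1 and 0.0805 without wild type 3. Without scurfy 3 the log2 fold change was smaller, at -0.51, and the call was kept (limma adjusted p = 0.0297).

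**Figure D1:**
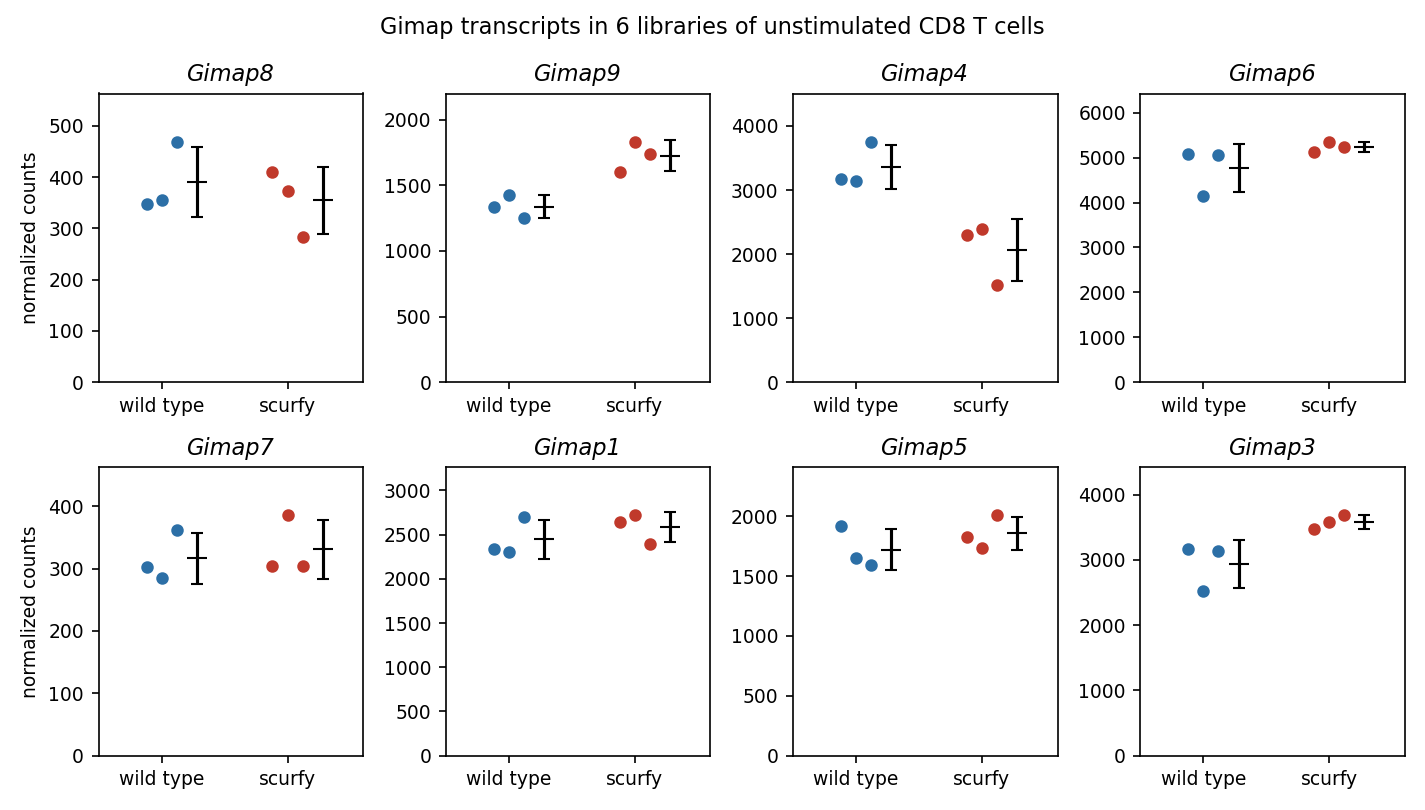
Normalized counts of each Gimap gene (vertical axes from 0, scaled per gene) in the 3 wild-type libraries (blue) and the 3 scurfy libraries (red), with the mean and SD of each group in black. For Gimap4 the scurfy libraries sit between 1513 and 2388, all below the wild-type libraries, whereas for Gimap9 they sit between 1599.6 and 1833, all above.

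Gimap9, the neighbour of Gimap4 in the cluster, had the largest positive difference of the family. It stood at 1599.6, 1833 and 1740.04 normalized counts in scurfy 1 to 3 and at 1337, 1425 and 1251 in wild type 1 to 3. The groups did not overlap, and the spread within each was small. The means were 1724 ± 118 and 1338 ± 86.7 (SD, n = 3 each), and the log2 fold change was 0.37 with a 95% interval from 0.13 to 0.60. It did not pass in limma (adjusted p = 0.0695) nor in edgeR on recovered reads (adjusted p = 0.0680). DESeq2 on recovered reads called it (adjusted p = 0.0373). The authors' deposited table holds the same adjusted p and log2 fold change (0.37) as this fit, so it is not a separate call. With a trend on gene length removed its log2 fold change was 0.28 (limma adjusted p = 0.165). With library size scaling it was 0.23 (limma adjusted p = 0.222). Over the fits that leave out 1 library it lay between 0.32 and 0.42, with limma adjusted p from 0.0848 to 0.209.

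**Figure D2:**
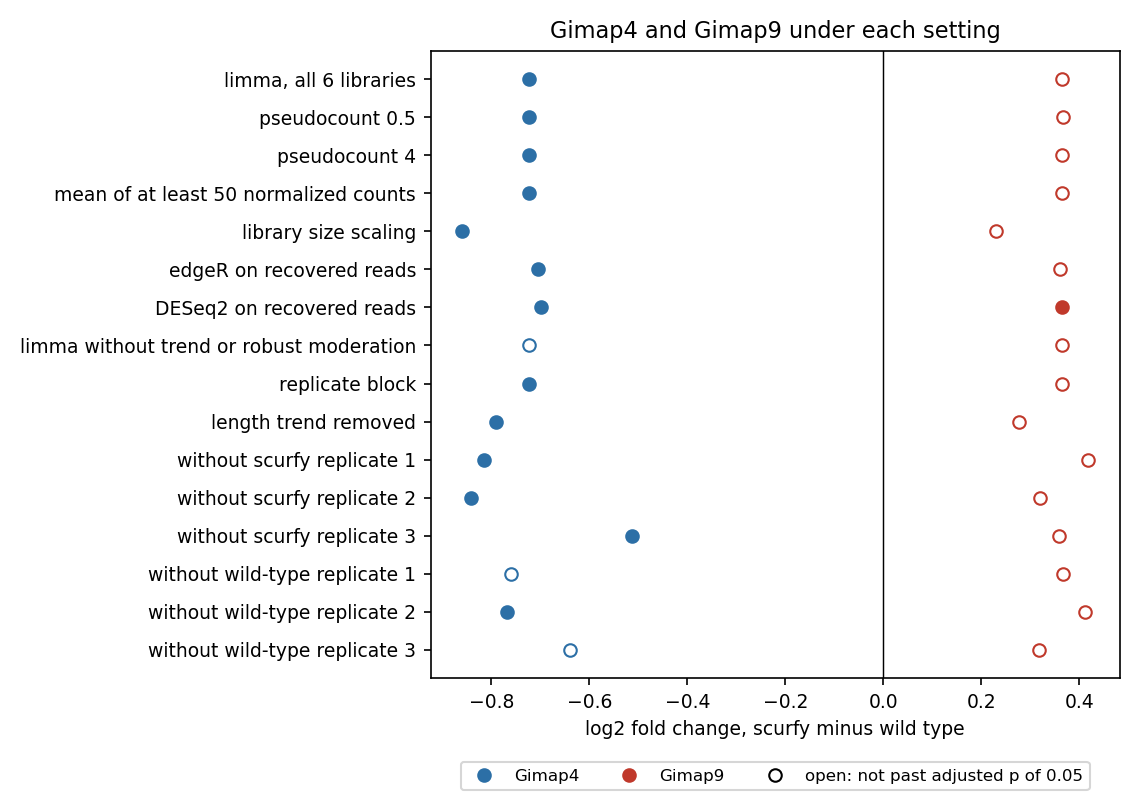
Log2 fold change (horizontal axis) of Gimap4 (blue) and Gimap9 (red) under each way of fitting the data listed on the vertical axis, with filled points where the adjusted p was under 0.05. Gimap4 stays between -0.86 and -0.51 and Gimap9 between 0.23 and 0.42.

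Gimap3 and Gimap5 are close relatives that have been described as partners of Bcl-2 family proteins. Mouse Gimap3 has also been linked to the segregation of mitochondrial DNA. Gimap3 stood at 3474, 3576 and 3686 normalized counts in scurfy 1 to 3 and at 3166, 2517 and 3131 in wild type 1 to 3. Here too every scurfy library lay above every wild-type library, and wild type 2 was the lowest. The log2 fold change was 0.29 (95% interval 0.057 to 0.53), which did not pass (limma adjusted p = 0.142). It was 0.18 without wild type 2 and 0.155 with library size scaling. Gimap5 stood at 1825, 1738 and 2009.56 in scurfy 1 to 3 and at 1917, 1653 and 1592 in wild type 1 to 3. The groups overlapped, and the log2 fold change of 0.11 had a 95% interval from -0.13 to 0.35 (limma adjusted p = 0.604). Of all 28 pairs of members, these were the 1 pair whose annotated transcripts share runs of 50 bases. There were 190 such runs, 7.52% of those of Gimap3 and 4.53% of those of Gimap5. Runs were taken at every base, so they can overlap and form fewer, longer stretches. Reads lying wholly within such a stretch cannot be assigned to 1 gene. How they were counted is a point not given in the sources used here.

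Gimap6, the partner of autophagy proteins, gave the most reads of the family, 3826 to 8575 in a library. It stood at 5123, 5358 and 5243 normalized counts in scurfy 1 to 3 and at 5086, 4144.5 and 5059 in wild type 1 to 3. The scurfy libraries lay just above the wild-type libraries, of which wild type 2 was apart below. The log2 fold change of 0.14 had a 95% interval from -0.084 to 0.37 and did not pass (limma adjusted p = 0.467). It was 0.047 without wild type 2 and 0.0073 with library size scaling. Gimap1, which peripheral T and B cells of the mouse need, stood at 2639, 2720.3 and 2396 in scurfy 1 to 3 and at 2342, 2301 and 2695 in wild type 1 to 3. The groups overlapped, with a log2 fold change of 0.081 and a 95% interval from -0.15 to 0.31 (limma adjusted p = 0.703). In the annotation 36.0% of the exonic bases of Gimap1 overlap the antisense gene Gimap1os. Gimap1os libraries lay at 35.4 to 56.7 normalized counts for scurfy and 66.5 to 92.8 for wild type, and it did not pass (log2 fold change -0.63, limma adjusted p = 0.268), although its groups did not overlap. Use of strand in counting is a point not given in the sources used here, and without it reads of this pair cannot be told apart.

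Gimap7 and Gimap8 gave the fewest reads, 228 to 735 in a library. Human GIMAP7 is known to be activated by pairing with another Gimap GTP-binding domain, and Gimap8 carries several such domains in 1 protein. Gimap7 stood at 304, 386 and 304 normalized counts in scurfy 1 to 3 and at 303, 284 and 363 in wild type 1 to 3. The groups overlapped almost entirely (log2 fold change 0.063, 95% interval -0.30 to 0.43, limma adjusted p = 0.869). Gimap8 stood at 409, 372 and 283 in scurfy 1 to 3 and at 348, 355 and 469 in wild type 1 to 3. These groups overlapped as well, the lowest value being that of scurfy 3 and the highest that of wild type 3 (log2 fold change -0.14, 95% interval -0.53 to 0.24, limma adjusted p = 0.691). At this depth the intervals of both genes still allow changes of a size like the one estimated for Gimap9.

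As a family the Gimap genes were close to the rest of the table. In limma 1 of 8 was called, against 4.47% of all genes, and it was lower in scurfy, as were 2.35% of all genes. None of the 8 was called higher in limma, edgeR or DESeq2 except Gimap9 in DESeq2, while limma called 2.12% of all genes higher. Of the whole table, limma called 246 genes higher and 272 lower, and with library size scaling 169 higher and 761 lower. As for the members below the threshold, 2 of the 7 others, Gimap9 and Gimap3, had an unadjusted limma p under 0.05, as did 21.2% of all genes. On recovered reads edgeR called Gimap4 alone, against 4.84% of all genes, and DESeq2 called Gimap4 and Gimap9, against 8.9%. The groups of libraries did not overlap for 4 of the 8, Gimap9, Gimap6 and Gimap3 with scurfy above and Gimap4 with scurfy below, against 27.1% of all genes (13.4% with scurfy above and 13.7% with scurfy below). With so few members a difference of 1 or 2 genes from the background share is not a result about the family. The median log2 fold change of the 8 was 0.097, and that of all genes was 0.0096. On library size alone, without the size factors of the authors, the median of the 8 was -0.040 and that of all genes -0.13. The authors' deposited table called 2 of the 8, Gimap4 and Gimap9, against 8.9% of the 10008 genes for which it gives an adjusted p. These match the DESeq2 calls on recovered reads and do not add to them.

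**Figure D3:**
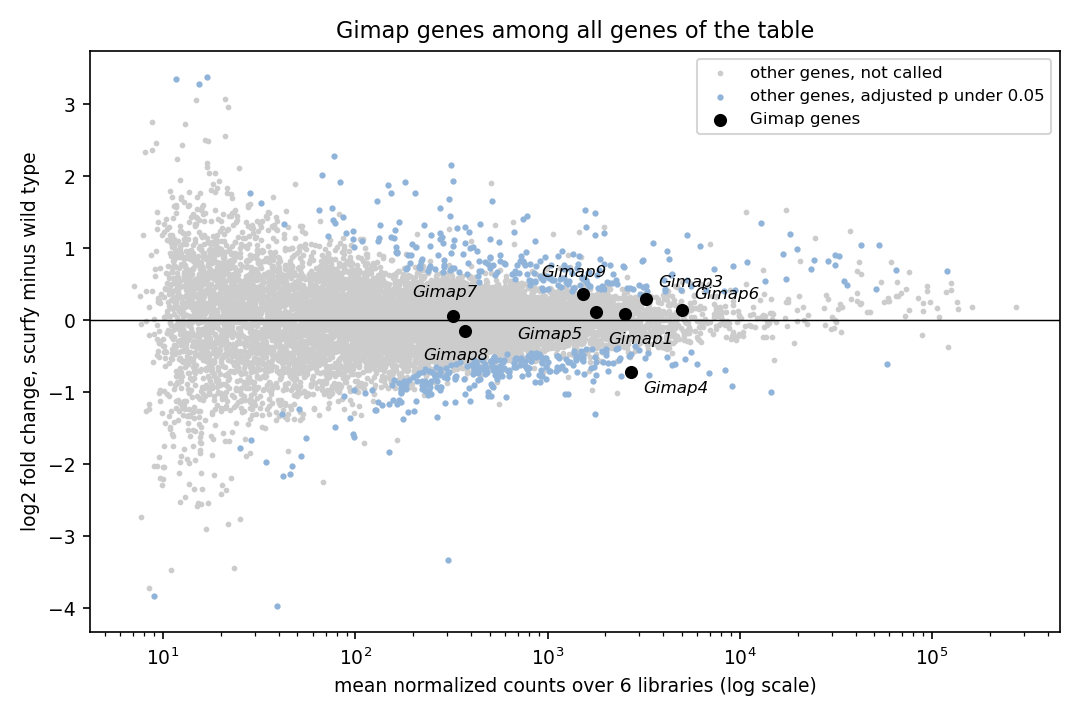
Log2 fold change (scurfy minus wild type, vertical axis) against mean normalized counts over 6 libraries (horizontal log axis) for every gene of the table, with genes past a limma adjusted p of 0.05 in blue and the 8 Gimap genes in black. Gimap4 lies at -0.72 among the called genes, and the other 7 lie between -0.14 and 0.37 among the genes that were not called.

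The summed level of the 8 transcripts did not differ beyond the spread between libraries. Its mean was 17741 ± 601 normalized counts for scurfy and 17273 ± 1295 for wild type (SD, n = 3 each), with ranges of 17173 to 18371 and 15824 to 18317 (two-sided exact permutation p = 0.6, where 0.1 is the smallest that 3 against 3 allows). As a share of all reads in the table it was 0.144% ± 0.00477 in scurfy and 0.154% ± 0.0146 in wild type (exact permutation p = 0.4). The make-up of this sum is shown by each gene's share of it. Gimap4 made up 13.0%, 13.0% and 8.81% of it in scurfy 1 to 3, against 18.0%, 19.9% and 20.5% in wild type 1 to 3. The groups did not overlap, with scurfy 3 the lowest. Such a share does not depend on how libraries are scaled against each other. Gimap3 made up 20.2% ± 1.10 in scurfy and 17.0% ± 1.01 in wild type, and Gimap9 made up 9.72% ± 0.587 and 7.80% ± 1.11. The shares add up to the whole, so a smaller share of Gimap4 makes the others together larger by arithmetic. Whether the shares of Gimap3 and Gimap9 were larger than this alone gives was not tested.

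**Figure D4:**
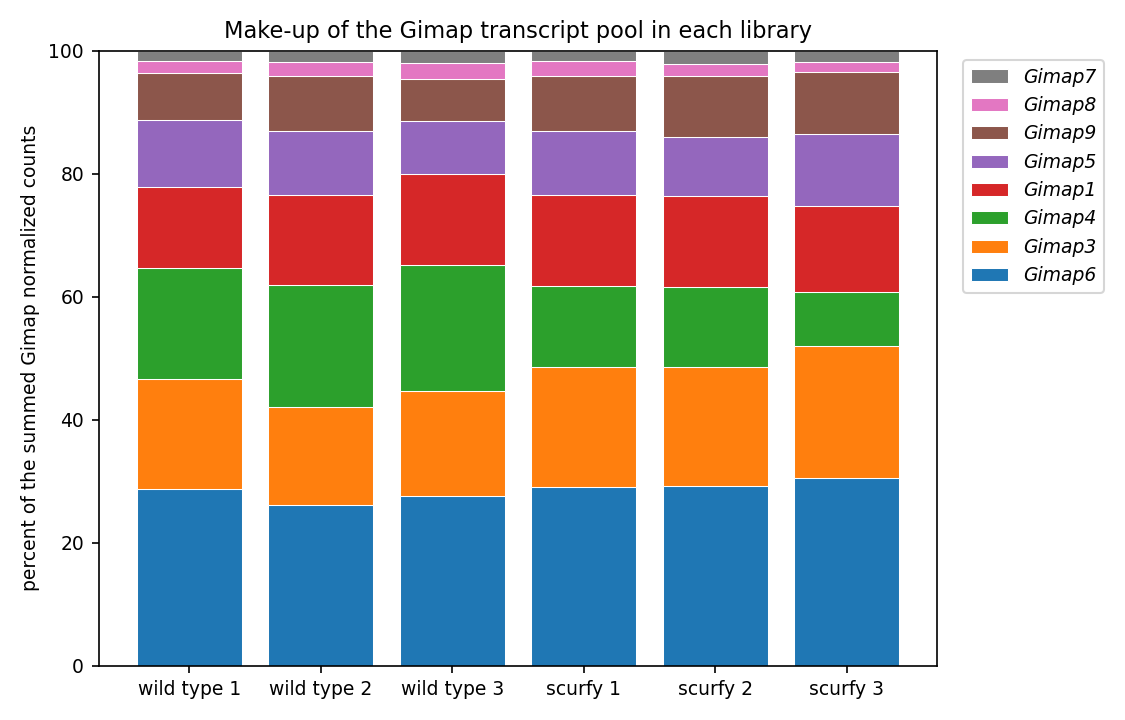
Stacked bars give the percent of the summed Gimap normalized counts (vertical axis, 0 to 100) taken by each gene in each of the 3 wild-type and 3 scurfy libraries. The green Gimap4 band takes 18.0% to 20.5% in wild type and 8.81% to 13.0% in scurfy, while the blue Gimap6 band takes 26.2% to 30.5% over all 6 libraries.

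The ratio of Gimap9 to Gimap4 normalized counts was 0.694, 0.768 and 1.15 in scurfy 1 to 3, and 0.421, 0.453 and 0.333 in wild type 1 to 3. The groups did not overlap, and scurfy 3 was the 1 library in which Gimap9 exceeded Gimap4. This pair was chosen after its values were seen, so no test is given for it. Gimap4 was also set against the mean log2 level of the other 7. Relative to them it was lower in scurfy by 0.85 on the log2 scale, at 0.43 ± 0.32 above them in scurfy and 1.28 ± 0.085 above them in wild type. This gave a two-sided exact permutation p of 0.1, the smallest possible, and 0.2 adjusted over the 8 members. The same p of 0.1 was reached by Gimap9, Gimap3 and Gimap1, each higher in scurfy relative to the rest, so it is not particular to Gimap4. For the other members the reference contains Gimap4 itself, so their comparisons are not read as changes of those genes.

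Levels of different genes were compared per kilobase of exon in GENCODE M21, as means over 6 libraries. Libraries primed with oligo-dT can hold more reads from the 3′ end of transcripts, which was not measured here, and dividing by length would then place long genes too low. Gimap4 (1477 ± 436 normalized counts per kilobase), Gimap6 (1431 ± 124) and Gimap3 (1264 ± 165) were the highest. Gimap9 (932 ± 141) and Gimap1 (819 ± 61.7) followed, then Gimap5 (431 ± 38.3), Gimap7 (139 ± 17.3) and Gimap8 (101 ± 17.0). Gimap4 was above Gimap6 in 3 of 6 libraries only, those of wild type, so on this scale the order of the top pair differed between the genotypes. Without the division by length Gimap6 lay above Gimap4, and Gimap1 above Gimap9, in all 6 libraries. Gimap6 was above Gimap3 in 6 of 6 libraries and Gimap9 above Gimap1 in 5, though their ranges over libraries overlapped. So did those of Gimap3 with Gimap9 and of Gimap7 with Gimap8. Gimap1 lay above Gimap5 and Gimap5 above Gimap7 with no overlap.

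Genes around the cluster gave no common direction. Of the 10 nearest protein-coding genes on each side, 8 had a row, and their median log2 fold change was -0.26. In limma 1 of the 8 passed, against 4.47% of all genes, and the groups did not overlap for 1, against 27.1%. Tra2a, a splicing regulator at the far end of this window, was lower, with libraries at 686 to 873 normalized counts (scurfy) and 985 to 1075 (wild type) (log2 fold change -0.47, limma adjusted p = 0.0495). That call was lost whichever library was left out, with limma adjusted p up to 0.133. The other 7 were Zfp467, Lrrc61, Zfp775, AI854703, Tmem176b, Tmem176a and Malsu1. They did not pass, with log2 fold changes from -0.56 to 0.57 and overlapping groups. Tmem176b, the nearest on the Gimap3 side, was at 49.3 to 83.0 normalized counts over the 6 libraries. Inside the cluster the annotated non-coding gene 4833403J16Rik (ENSMUSG00000107481) was at 121, 113 and 249.4 normalized counts in scurfy 1 to 3 and at 87.7, 96.7 and 78.9 in wild type 1 to 3. Its groups did not overlap, and it did not pass (log2 fold change 0.78, limma adjusted p = 0.143, and 0.42 with adjusted p = 0.432 without scurfy 3).

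**Figure D5:**
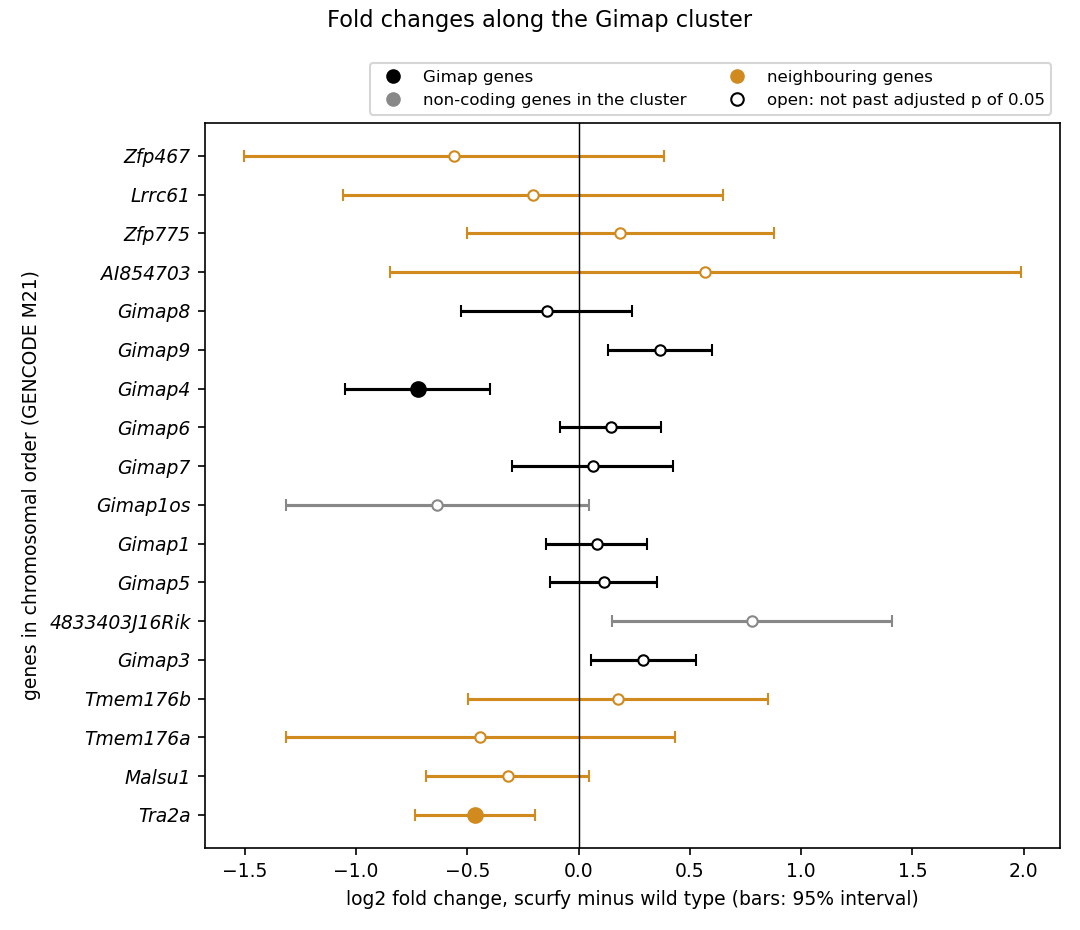
Log2 fold change with its 95% interval (horizontal axis) for every gene with a row inside the Gimap cluster and among the 10 nearest protein-coding genes on each side, in chromosomal order from top to bottom. Filled points, which passed a limma adjusted p of 0.05, are Gimap4 at -0.72 and Tra2a at -0.47, and Gimap9 just above Gimap4 lies at 0.37.

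Lists of genes tied to what Gimap proteins are known for were counted in the same fit. Of 14 genes of the Bcl-2 family with a row (18 planned), none passed in limma, edgeR or DESeq2 (which gave an adjusted p for 13), and 2 had an unadjusted limma p under 0.05, against 21.2% of all genes. The closest was Bid, which links death receptors to mitochondria, at -0.52 (limma adjusted p = 0.0893). With library size scaling Bid passed, at -0.66 (limma adjusted p = 0.0324). None of 28 autophagy genes with a row (30 planned) passed in limma, edgeR or DESeq2 (27 with an adjusted p), with 2 at an unadjusted limma p under 0.05. Here the closest was the kinase Ulk2 at -0.48 (adjusted p = 0.124). None of 8 septins with a row (11 planned) passed by any of the 3 tools (6 with an adjusted p in DESeq2), and 5 had an unadjusted limma p under 0.05 (again, 21.2% over all genes). Sept9 was closest among these cytoskeletal GTPases, at 0.48 (adjusted p = 0.0889). The medians of these 3 lists were -0.018, -0.016 and -0.32, against 0.0096 over all genes.

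Another group of immune GTPases, induced by interferon, had 11 genes with a row of 18 planned. Gbp9, a guanylate-binding protein, was lower at 114, 127 and 141 normalized counts in scurfy 1 to 3 and 206, 217 and 280.3 in wild type 1 to 3. Its log2 fold change was -0.87 (limma adjusted p = 0.03005), and the call was lost without scurfy 1, scurfy 2, wild type 2 or wild type 3 (adjusted p up to 0.123, without wild type 3). The other 10 did not pass in limma, which called 4.47% of all genes, and the median of the 11 was -0.044. An unadjusted limma p under 0.05 was reached by 4 of the 11, against 21.2% of all genes. The groups did not overlap for 4, against 27.1%. Of the 10 with an adjusted p in DESeq2, 1 was called higher and 2 lower, against 4.15% and 4.76% of all genes given one. Of 7 genes of GSK3 and beta-catenin signalling, which has been linked to Gimap5, none passed in limma or edgeR, while DESeq2 called the kinase gene Csnk1a1 (log2 fold change -0.40, DESeq2 adjusted p = 0.0389). With library size scaling limma called it too (-0.54, adjusted p = 0.0180). An unadjusted limma p under 0.05 was reached by 3 of the 7, against 21.2% of all genes. The DESeq2 call was 1 of the 7, against 8.9% of the genes given an adjusted p.

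Among 19 naive T cell and quiescence genes with a row (20 planned), 1 rose and 3 fell in limma, which called 2.12% of all genes higher and 2.35% lower. DESeq2 called 1 higher and 6 lower, against 4.15% and 4.76% of all genes. Dapl1 rose by 1.18 on the log2 scale (limma adjusted p = 0.000868), and the exit receptor S1pr1, the transcription factor Ets1 and Tob1, an inhibitor of T cell proliferation, fell. S1pr1 was at 2676, 2757 and 2095 normalized counts in scurfy 1 to 3 and 3681, 4360.1 and 4665 in wild type 1 to 3 (log2 fold change -0.76, limma adjusted p = 0.00673). Its groups did not overlap. Ets1 was at 7305, 7052 and 5051 normalized counts in scurfy 1 to 3 and 10308, 9749.6 and 10808 in wild type 1 to 3. Scurfy 3 was lowest and wild type 3 highest, as for Gimap4 but also for S1pr1, Tob1 and Gimap8, so this order is not particular to Ets1. Scurfy 3 also lay farthest out on the first principal component. The log2 fold change of Ets1 was -0.69 (limma adjusted p = 0.0139, and 0.0548 without wild type 3). Tob1 was at -0.77 (limma adjusted p = 0.0221), and its call was lost without scurfy 1, scurfy 3, wild type 2 or wild type 3, with adjusted p up to 0.0823. The median of the 19 was -0.16. An unadjusted limma p under 0.05 was reached by 9 of the 19, against 21.2% of all genes. The groups did not overlap for 11, against 27.1%. This list, like the others, was chosen with earlier results of these data known.

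B cells also carry Gimap transcripts, so B cell markers are given beside these results. Of 10 markers 7 had a row, Cd79a and Ms4a1 not among them. Their summed level lay between 9895 and 11352 normalized counts over scurfy libraries and between 10971 and 11753 over wild-type libraries, nearly all of it Ighm. The log2 fold changes of all 7 were negative, with a median of -0.99. Besides Ighm, Ighd and Cd79b, whose groups overlapped, these were Cd74, H2-Aa, H2-Ab1 and H2-Eb1 of the MHC class II pathway, each with every scurfy library below every wild-type library. Cd74 (-0.99, limma adjusted p = 0.202) and H2-Eb1 (-2.34, limma adjusted p = 0.0844) did not pass. The MHC class II gene H2-Aa was lower, at 15.7, 0 and 4.73 in scurfy 1 to 3 and 57.2, 84.1 and 73.9 in wild type 1 to 3 (limma adjusted p = 0.0164, but 0.0661 without wild type 2 and 0.0706 without wild type 3). The other 6 with a row did not pass in limma, and edgeR called H2-Ab1 lower as well. Of all genes, limma called 2.35% lower, and groups did not overlap with scurfy below for 13.7%. The part of B cell transcripts in the fall of Gimap4 was not tested. Among 6 T cell markers, Cd3d and Cd2 rose in limma, by 0.76 and 0.43 on the log2 scale, and none was called lower. That is 2 of 6, while limma called 2.12% of all genes higher. DESeq2 called Cd3g higher as well, 3 of 6 against 4.15% of the genes with an adjusted p. Cd247 was at -0.11 (limma adjusted p = 0.620). The call of Cd2 was lost whichever library was left out (limma adjusted p up to 0.129).

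The mean profile of the 8 members was nearly flat, from -0.114 in wild type 2 to 0.094 in scurfy 2. This mean combines Gimap4, lower in scurfy, with members that were higher, so its flatness does not show that each member was flat. Profiles were compared as log2(value + 1) centred on each gene's mean, by the root mean square difference from the mean profile of the 8 members. Among 7929 other genes with a mean of at least 100 normalized counts, the 5 closest were Glmp (0.024), Ust (0.032), Zfp511 (0.032), Tsc22d4 (0.033) and Il4ra (0.034), against a median of 0.216. Of the members Gimap1 was nearest to the family profile at 0.044, with 14 of those genes closer. Gimap4 was farthest at 0.410, with 7235 of them closer. Gimap9 came next at 0.215, about the median, with 3923 closer. Gimap5, Gimap3 and Gimap8 lay at 0.162 to 0.177, with 2116 to 2603 closer. Each member is itself part of the mean it was compared with.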

How the data were processed

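Polyadenylated RNA was reverse transcribed from oligo-dT primers, amplified by in vitro transcription and sequenced on an Illumina NextSeq, per the labels' protocols. Trim Galore 0.4.4, STAR 2.6, featureCounts, edgeR, DESeq2 and build NCBIM37 are named without a role, per the submitters' processing notes. The authors deposited 2 tables with the same bytes, whose columns name the unstimulated libraries, and 1 was used. Its deposited signal is a normalized read count: all nonzero values were whole multiples of a library's value for 1 read (tolerance 0.01 read), from which reads and depths were recovered. At this depth 3 reads are 1.45 to 3.99 normalized counts. Per the file headers, the authors also deposited, for each gene, a test score, a p-value (raw and adjusted) and a log2 fold change. For the Gimap genes the deposited log2 fold changes and adjusted p-values matched those of DESeq2 on recovered reads to rounding. The lowest mean in the table was 7.10, and any filter behind it is one not given in the sources used here.

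The test planned for normalized values took the place of the count test. Values were tested as log2(value + 1) with limma 3.58.1 (R 4.3.3), all 11581 genes and 6 libraries in 1 fit, with trend and robust moderation and Benjamini-Hochberg adjustment at 0.05. Log2 fold changes of low genes depend on the value added. H2-Aa was at -3.97 with 1 added, -4.35 with 0.5 and -3.08 with 4. It was at -3.39 in edgeR and -3.40 in DESeq2, so the main scale can also give larger changes than the count models. The script was tested on simulated data. Alternatives included edgeR 4.0.16 and DESeq2 1.42.0 on recovered reads. Gene order, exons and transcripts came from GENCODE M21 on another build, GRCm38, so no gene coordinates are given.

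The members and lists were chosen with earlier results of these data known. Named were all members, their neighbours with a row, the 5 genes nearest in profile, and from each list up to 4 members past the threshold or the 1 with the smallest p.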

Additional observations from a re-analysis of the deposited data

How the results depend on the processing

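The fall of Gimap4 kept its direction under all 15 alternatives and its call under 12, the exceptions being the fits without wild-type library 1 or 3 and limma without trend or robust moderation (adjusted p = 0.193). Over the fits that leave out 1 library its log2 fold change lay between -0.84 and -0.51. The number of Gimap genes called was 2 with DESeq2 on recovered reads and 0 without trend or robust moderation, where 2 had an unadjusted p under 0.05. It was 0 to 1 with 1 library left out. The median log2 fold change of the family was 0.043 to 0.16 with 1 library left out, and -0.040 with library size scaling. That scaling moved the median of all genes from 0.0096 to -0.13 and turned Gimap7 to -0.073, Gimap1 to -0.055, Gimap5 to -0.024 and Cd8a to -0.021. With 1 library left out, Gimap7 ranged from -0.051 to 0.16 (negative without scurfy 2 and without wild type 2, at -0.011) and Gimap8 from -0.26 to 0.012 (positive without scurfy 3). Among the neighbours, Zfp775 ranged from -0.12 to 0.59 and Lrrc61 from -0.58 to 0.24, both turning without scurfy 2, and AI854703 ranged from -0.037 to 0.88, turning without wild type 1. These genes did not pass in the main setting. Over all genes, 518 passed in the main setting. The count was 930 with library size scaling, 891 with DESeq2, 302 with the length trend removed and 0 without trend or robust moderation, where 2106 had an unadjusted p under 0.05. It was 113 to 403 with 1 library left out. No pairing by the replicate numbers of the labels was seen. Deviations of same-numbered libraries correlated at -0.069 to 0.0088, and those of other pairs at -0.089 to 0.116. With 3 libraries per group such correlations cannot settle whether libraries were handled in pairs. With the replicate block 372 genes and 1 Gimap gene passed (Gimap4 adjusted p = 0.0348), and Cd2 and Tra2a lost their calls. The causes of these shifts were not tested.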
